A study of Homo sapiens with 16 samples.

Results

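The response to the androgen dihydrotestosterone (DHT) was measured in LNCaP cells, an androgen-sensitive human prostate cancer line, in which SLIRP had been knocked down. All cells of this comparison were transfected for 24 h with a pool of siRNAs against SLIRP at 40 nM and then kept for 24 h in serum-free medium with vehicle (SLIRP-Veh) or with 1 nM DHT (SLIRP-1nM DHT). Each group had 4 libraries, so that 8 of the 16 libraries of the series were compared, over all genes whatever their response. Many of the genes named below were chosen by their response. The other 8 libraries came from LNCaP cells with a nonsense control siRNA (NS) at the same dose, with vehicle (NS-Veh) or 1 nM DHT (NS-1nM DHT). They share no library with the SLIRP siRNA comparison and are used here to ask whether the response differed between the siRNAs. The study's methods describe 2 biological replicates in each of 2 experiments and do not say which replicate numbers belong to which experiment.

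Androgens such as DHT are steroid hormones that change transcription, in part through androgen responsive elements in DNA, at which coactivators or corepressors are recruited. In luminal prostate cells the hormone turns on secreted proteases of the kallikrein family, lipid and polyamine synthesis and, in cancer cells, proliferation, and it lowers another set of genes. SLIRP is a small RNA-binding protein that binds the noncoding RNA SRA, a coactivator of nuclear receptors, and the study asked how its loss changes the response to androgen.

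Between 646600 and 1689708 estimated counts per library were assigned to genes in the 8 SLIRP siRNA libraries. Before scaling, 3 counts corresponded to 1.78 to 4.64 CPM (counts in 1000000 counts of a library), a floor that covers counting error only. The CPM values given below are scaled by edgeR's TMM factors. SLIRP, listed as C14orf156 (Entrez 81892), had 1 to 10 counts per library after SLIRP siRNA, against 44.3 to 63.6 CPM in the 8 NS libraries, and was too low to be tested for a DHT response. Its exons overlap those of SNW1. The luminal markers summed to 2850 to 2900 CPM in vehicle and 2990 to 3290 CPM in DHT, the 3 basal markers were at 0 counts in all 8 libraries, and 2 of the 4 stroma markers were at 0. SLIRP-Veh replicate 2, the shallowest library, stood apart on the first principal component, at -33.0 against -4.81 to 16.3 for the others, and without it 44 genes were higher and 37 lower in place of the counts given below. Libraries of a group differed by more than sampling noise (chi-square per degree of freedom of 1.21 to 2.37), so none was treated as a repeat of another. This does not show that they are independent. The lowest values were 1.21 for SLIRP-Veh replicates 3 and 4 and 1.53 for SLIRP-1nM DHT replicates 1 and 2. The fit had no term for the experiment.

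The 2 genes with the largest responses, KLK2 and KLK3, stand side by side on chromosome 19, and their upstream sequences are shown because they hold the same kind of androgen responsive element. RefSeq gives the 250 bases before the start of each gene on GRCh38.p14, plus strand, at chr19:50854665-50854914 for KLK3 and chr19:50873189-50873438 for KLK2. The capitals mark 15 bases that match AGAACA or GGAACA followed by any 4 bases, GT, any base and CT.
KLK3: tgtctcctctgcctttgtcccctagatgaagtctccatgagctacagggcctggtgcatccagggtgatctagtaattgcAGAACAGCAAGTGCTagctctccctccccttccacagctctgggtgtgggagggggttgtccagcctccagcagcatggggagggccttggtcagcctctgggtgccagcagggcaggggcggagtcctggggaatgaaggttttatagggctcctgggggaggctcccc
KLK2: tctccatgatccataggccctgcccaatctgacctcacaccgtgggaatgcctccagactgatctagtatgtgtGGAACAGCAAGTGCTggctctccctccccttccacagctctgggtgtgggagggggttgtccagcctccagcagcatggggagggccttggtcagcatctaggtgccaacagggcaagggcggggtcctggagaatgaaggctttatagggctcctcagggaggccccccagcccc
The matches start at position -170 in KLK3 and -176 in KLK2, counted from the first base of the transcript, and differ by A1G (KLK3 first, counted from the 5′ end of the match). Aligned without gaps from the first base of the match, 158 of 170 bases were identical in both genes (92.9%). This stretch reaches the start of KLK3 and stops short of that of KLK2.

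With SLIRP knocked down, DHT raised 55 genes and lowered 46. Genes were called with the quasi-likelihood test of edgeR where the false discovery rate (FDR, Benjamini-Hochberg) over the 9751 genes that passed its filter on low counts was under 0.01, so that 0.564% of genes tested were higher and 0.472% lower. At an unadjusted p of 0.05, 1405 genes differed, where that threshold alone would pass 488. In 98 of the 101 genes called, the 4 DHT libraries all lay on one side of the 4 vehicle libraries, while over all genes tested 4.86% had every DHT library above every vehicle library and 3.64% had every one below. Most changes were small: 9 genes rose by more than 1 on the log2 scale, and 5 fell below -1. The median over all genes tested was 0.00. The number of calls depended on single libraries. Without SLIRP-Veh replicate 1, the deepest library, 26 genes were higher and 21 lower. Leaving out SLIRP-Veh replicate 3 gave 32 higher genes, SLIRP-1nM DHT replicate 2 gave 31, SLIRP-1nM DHT replicate 3 gave 31 higher and 25 lower, and SLIRP-1nM DHT replicate 1 gave 27 lower. Limma on the authors' normalized table called 21 genes higher and 17 lower, and edgeR with no filter on low counts called 102 and 78.

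**Figure D1:**
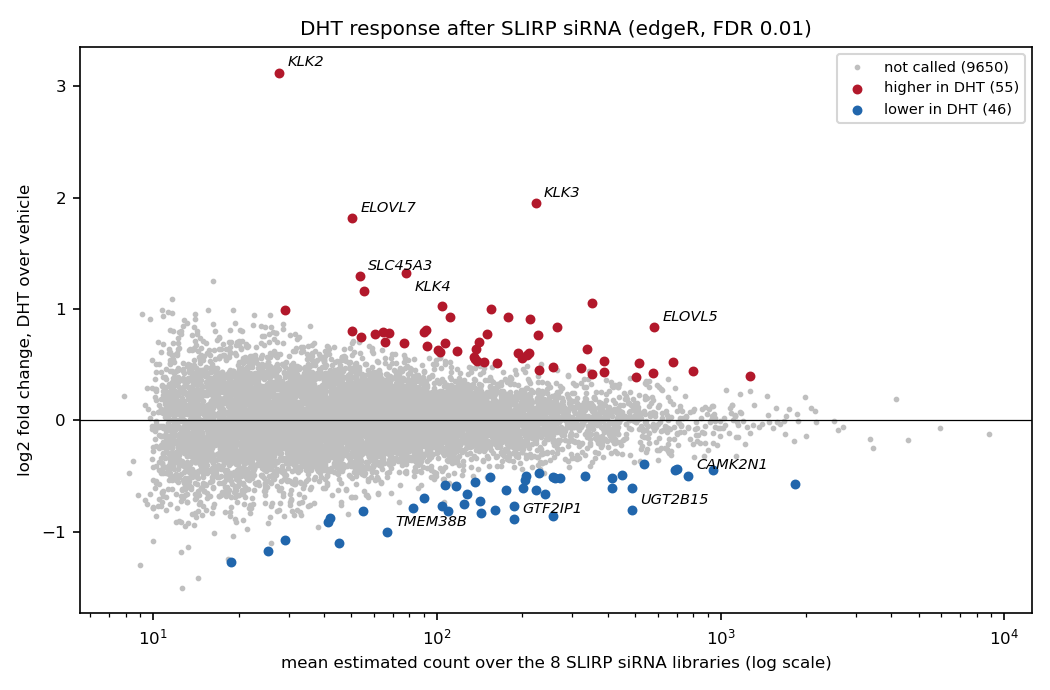
Log2 fold change of DHT over vehicle (vertical axis) against the mean estimated count over the 8 SLIRP siRNA libraries (horizontal axis, log scale), with 1 point for each of the 9751 genes tested. The 55 genes called higher are red and the 46 called lower are blue. KLK2 at 3.12 and KLK3 at 1.95 lie above the other genes called.

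KLK2, KLK3 and KLK4 belong to the kallikreins, secreted serine proteases that the prostate releases into semen, and KLK2 and KLK3 had the largest rises of all genes called. KLK3 (Entrez 354, hg19 chromosome 19, 51358171 to 51364020), which encodes prostate specific antigen, was 93.0, 95.95, 97.3 and 96.4 CPM in SLIRP-Veh replicates 1 to 4 and 397.1, 379.1, 379.0 and 335.6 CPM in SLIRP-1nM DHT replicates 1 to 4. The 4 DHT libraries lay far above the vehicle libraries, which differed from each other by less than 5 CPM. The log2 fold change was 1.95 (standard error, SE, 0.11, edgeR FDR 7.76e-15), or 3.87-fold. KLK2 (Entrez 3817, hg19 chromosome 19, 51364824 to 51383823), a protease that can activate prostate specific antigen, was 4.80, 4.57, 7.89 and 7.01 CPM in vehicle and 50.4, 67.7, 43.3 and 52.8 CPM in DHT. It had the largest log2 fold change of all genes called, 3.12 (SE 0.27, edgeR FDR 1.89e-09), although the vehicle level rested on 3 to 8 counts per library. KLK4 (Entrez 9622, hg19 chromosome 19, 51409607 to 51414651) was 52.8, 44.2, 43.4 and 39.5 CPM in vehicle and 137.1, 135.3, 82.7 and 113.8 CPM in DHT, a log2 fold change of 1.33 (SE 0.16, edgeR FDR 2.08e-06). SLIRP-1nM DHT replicate 3 had the least KLK4 of the DHT libraries and was still above every vehicle library. KLK2 and KLK3 are close paralogs, and the estimated counts may divide reads that match both. KLK5, KLK8 and KLK12 had 0 counts in all 8 libraries.

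**Figure D2:**
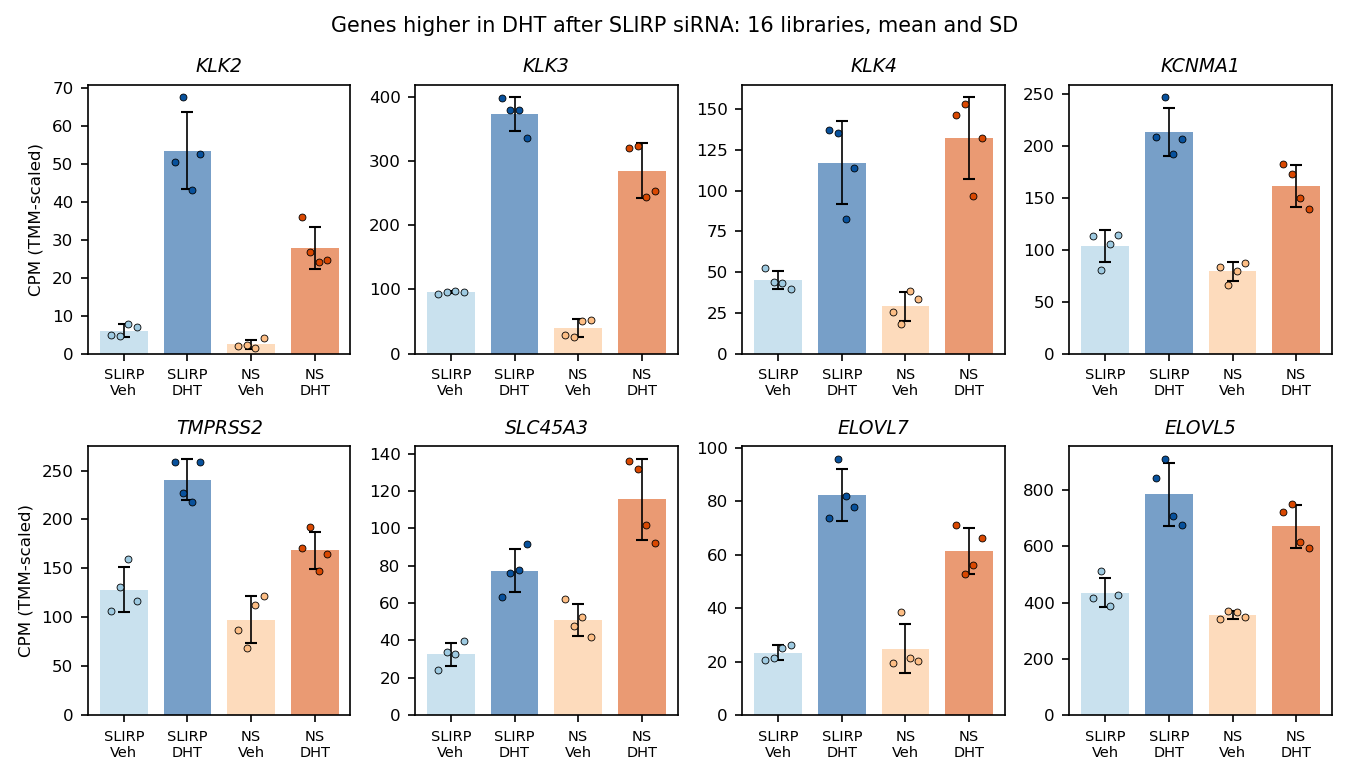
CPM (TMM-scaled, vertical axes from 0) of 8 genes that DHT raised after SLIRP siRNA, in SLIRP-Veh, SLIRP-1nM DHT, NS-Veh and NS-1nM DHT. Points are libraries, bars are means and whiskers are SDs (n = 4). In each panel the 4 SLIRP-1nM DHT libraries lie above the 4 SLIRP-Veh libraries.

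Other products of the luminal prostate cell rose too. SLC45A3 (Entrez 85414), which encodes the transporter prostein, went from 32.5 ± 6.37 to 77.3 ± 11.6 CPM (SD, n = 4), with 1.29 (SE 0.18) on the log2 scale. TMPRSS2 (Entrez 7113), a membrane serine protease, went from 128.2 ± 22.9 to 240.8 ± 21.3 CPM (SD, n = 4), with 0.93 (SE 0.12). Of the 30 genes listed as kallikreins and prostate products, 13 were tested, 6 rose, KLK2, KLK3, KLK4, SLC45A3 and TMPRSS2 among them, and 1 fell, with a median of 0.78. The share that rose was 46.2%, against 0.564% of all genes tested. The one that fell was PLA2G2A, a secreted phospholipase, with -0.72 on the log2 scale. ACPP, which encodes prostatic acid phosphatase, and FOLH1, which encodes prostate specific membrane antigen, were not called, with -0.29 and -0.21.

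The 15 largest rises among genes whose mean count was 50 or more also held channels, receptors and enzymes. KCNMA1, the pore subunit of a large-conductance potassium channel, went from 103.2 ± 15.5 to 213.4 ± 23.3 CPM (SD, n = 4). GPR158, an orphan receptor, went from 78.3 ± 14.8 to 154.1 ± 36.1 CPM (SD, n = 4), with replicates 1 and 2 above replicates 3 and 4 in both groups. HERC3, a ubiquitin ligase, went from 69.5 ± 7.31 to 147.6 ± 31.5 CPM (SD, n = 4), and again SLIRP-1nM DHT replicates 1 and 2 (181.1 and 167.7 CPM) were above replicates 3 and 4 (121.2 and 120.3 CPM). FAM174B rose by 1.16 (SE 0.18) on the log2 scale. DEGS1, the desaturase that makes ceramide, rose by 0.84 (SE 0.10), and CLGN, a chaperone of the endoplasmic reticulum, by 0.82 (SE 0.13). FAM111B, a protease, rose from 152.1 ± 38.3 to 292.2 ± 59.8 CPM (SD, n = 4), a change of 0.91 (SE 0.14) on the log2 scale. Outside these 15, BRP44, now named MPC2, a subunit of the mitochondrial pyruvate carrier, rose by 0.77 (SE 0.10), and SGEF, now named ARHGEF26, a guanine nucleotide exchange factor, by 0.59 (SE 0.11). The call of SGEF was lost without SLIRP-Veh replicate 1 or SLIRP-1nM DHT replicate 3 (edgeR FDR 0.0134 to 0.0189). FAM174B, HERC3, KCNMA1, GPR158, TMPRSS2, BRP44 and SGEF overlap exons of another gene, and since the strand used for counting is not given in the sources used here, their values are uncertain.

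A list of 102 androgen response genes was read as a whole. Of the 89 tested, 16 rose, 0 fell and 71 had a positive log2 fold change, with a median of 0.23 beside 0.00 over all genes. Over all genes tested, 0.564% rose. At an unadjusted edgeR p under 0.05, 39 were higher and 1 was lower, while over all genes tested 7.62% were higher and 6.79% lower at that threshold. Besides those named, they included STK39, a kinase (0.69), DBI, a binding protein for acyl-CoA (0.64), ABCC4, an efflux transporter (0.56), UAP1, an enzyme of hexosamine synthesis (0.53), and SORD, sorbitol dehydrogenase (0.51), whose exons overlap those of another gene. Without SLIRP-Veh replicate 1, 9 of the list were called, and without SLIRP-1nM DHT replicate 3, 10. FKBP5, a cochaperone of steroid receptors, was not among them. Its libraries overlapped, with 116.4, 140.1, 86.8 and 99.1 CPM in vehicle and 168.1, 162.1, 123.1 and 120.3 CPM in DHT, a log2 fold change of 0.35 (95% interval 0.07 to 0.63, edgeR FDR 0.211).

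Transcriptional coregulators and luminal transcription factors gave 0 and 1 call. Over all genes tested 0.564% rose and 0.472% fell, and at those shares lists of this size would hold few calls. Of 53 nuclear coregulators tested, 0 were called in either direction, with edgeR or DESeq2, their median was -0.06, and 5 were lower and 0 higher at an unadjusted edgeR p under 0.05. Of 14 luminal transcription factors tested, 1 rose (7.14%), and 3 were higher and 4 lower at that unadjusted threshold. Over all genes tested, 7.62% were higher and 6.79% lower at it. FOXA1, a pioneer factor, was at -0.15, HOXB13 at -0.31 and GATA2 at -0.21 on the log2 scale, all uncalled.

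The genes that DHT lowered were mostly of other kinds. Among those with separated groups and a mean count of 50 or more, TMEM38B (Entrez 55151, hg19 chromosome 9, 108456822 to 108538910), a potassium channel of the endoplasmic reticulum, fell most. It was 89.4, 60.9, 89.4 and 99.1 CPM in vehicle and 38.8, 36.6, 40.4 and 53.6 CPM in DHT, a log2 fold change of -1.004 (SE 0.17, edgeR FDR 0.000274). UGT2B15 (Entrez 7366, hg19 chromosome 4, 69512315 to 69536370), a glucuronosyltransferase that inactivates DHT, was 615.6, 592.4, 600.7 and 623.4 CPM in vehicle and 349.2, 346.7, 329.0 and 376.2 CPM in DHT. Its SDs were the smallest for their means among the named genes that fell, with a log2 fold change of -0.81 (SE 0.08, edgeR FDR 9.01e-08). NIPSNAP3A went from 321.6 ± 21.4 to 175.8 ± 41.5 CPM (SD, n = 4), a change of -0.86 (SE 0.12) on the log2 scale. GTF2IP1, a transcribed pseudogene copy of the transcription factor gene GTF2I, went from 243.6 ± 32.4 to 133.9 ± 28.1 CPM (SD, n = 4), a change of -0.89 (SE 0.13) on the log2 scale, and its counts are uncertain because near-identical copies can share reads. The same limit holds for UGT2B15 and TUBA1A, which belong to families of close copies, and for FOXO3B, a copy of FOXO3 that was called lower with it.

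TUBA1A, an alpha-tubulin, went from 201.6 ± 25.3 to 117.7 ± 21.6 CPM (SD, n = 4), and ADD3, an adducin of the membrane skeleton, from 179.7 ± 21.5 to 104.7 ± 31.3 CPM (SD, n = 4). MAPRE2, which binds growing microtubule ends, changed by -0.81 (SE 0.17) on the log2 scale. MYRIP, which links a myosin to Rab GTPases, changed by -0.81 (SE 0.17). SLC12A2, a sodium, potassium and chloride cotransporter, went from 228.2 ± 31.2 to 133.9 ± 26.4 CPM (SD, n = 4), a change of -0.77 (SE 0.12) on the log2 scale. The call of ADD3 was lost without SLIRP-1nM DHT replicate 3 (edgeR FDR 0.0112). The call of MAPRE2 was lost without SLIRP-Veh replicate 1 or 3 or SLIRP-1nM DHT replicate 2, 3 or 4 (edgeR FDR 0.0118 to 0.0921), and that of MYRIP without SLIRP-Veh replicate 1 or 2 or SLIRP-1nM DHT replicate 3 or 4 (edgeR FDR 0.0169 to 0.0428). TUBA1A, ADD3 and MYRIP overlap exons of another gene.

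Of 10 genes listed as lowered by androgen that were tested, 3 fell, 0 rose and 10 of 10 had a negative log2 fold change, with a median of -0.48, where 0.472% of all genes tested fell. Besides UGT2B15 these were CAMK2N1, an inhibitor of a calcium-dependent kinase, from 883.6 ± 58.7 to 630.5 ± 58.7 CPM (SD, n = 4), and DDC, aromatic amino acid decarboxylase, from 236.3 ± 33.8 to 165.8 ± 18.6 CPM (SD, n = 4). The call of DDC, whose exons overlap those of an antisense gene, was lost without SLIRP-Veh replicate 1, 2 or 3 or SLIRP-1nM DHT replicate 1, 3 or 4 (edgeR FDR 0.0101 to 0.0676). OPRK1 was at -0.76 and SI at -0.67 without passing the test. Other genes called lower included the receptor kinase ERBB2 (-0.50), the transcription factors FOXO3 (-0.49) and SOX4 (-0.39), the chromatin factors CHD4 (-0.50) and KDM5B (-0.47), and GRB10, an adaptor of insulin signaling (-0.45). The 4 DHT libraries of CHD4, SPTAN1 and COLEC12 were not all below the 4 vehicle libraries, alone among the 101 genes called. ERBB2, SOX4 and CHD4 overlap exons of another gene.

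**Figure D3:**
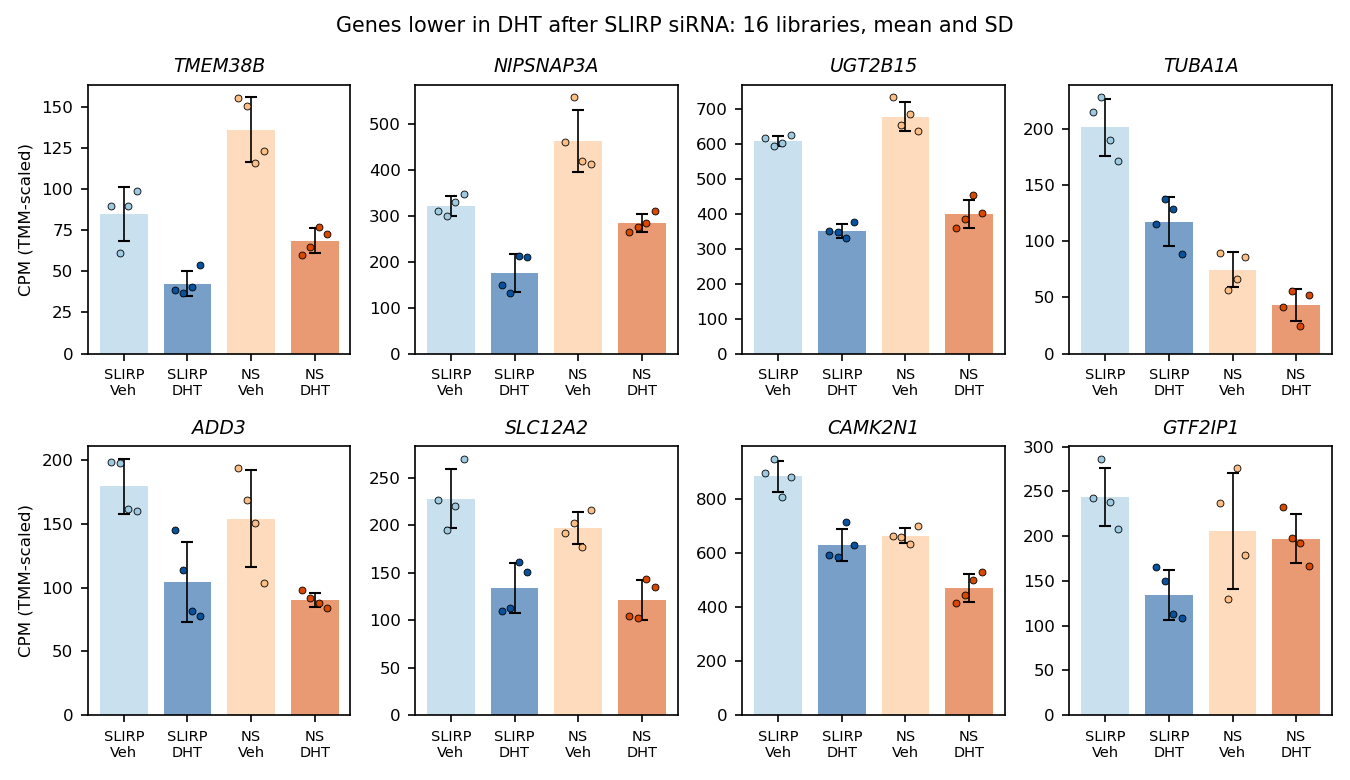
CPM (TMM-scaled, vertical axes from 0) of 8 genes that DHT lowered after SLIRP siRNA, in the same 4 groups. Points are libraries, bars are means and whiskers are SDs (n = 4). GTF2IP1 overlaps between NS-Veh and NS-1nM DHT but not between the SLIRP siRNA groups.

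Of 22 genes of fatty acid synthesis and elongation and 28 of cholesterol synthesis, 2 in each list rose (9.09% and 7.14%, against 0.564% of all genes tested). The elongase ELOVL7 (Entrez 79993, hg19 chromosome 5, 60047618 to 60140101) had the third largest rise among the genes called. It was 20.4, 21.3, 24.98 and 26.3 CPM in vehicle and 73.7, 95.8, 81.8 and 78.0 CPM in DHT, a log2 fold change of 1.82 (SE 0.18, edgeR FDR 2.42e-08). ELOVL5, which elongates polyunsaturated fatty acids, went from 436.1 ± 52.9 to 784.9 ± 110.8 CPM (SD, n = 4), a change of 0.84 (SE 0.10) on the log2 scale. These were the 2 that rose in the fatty acid list, whose median was 0.14, and 9 were higher and 1 lower at an unadjusted edgeR p under 0.05. The core enzymes were uncalled, with 0.14 for FASN, 0.21 for SCD and 0.22 for ACACA on the log2 scale. In the cholesterol list 0 genes fell and 22 had a positive value, with a median of 0.27, and 11 were higher and 1 lower at that threshold. DESeq2 called 3 genes higher in each list. Among those that rose, ACAT2, a thiolase of the first step, went from 109.3 ± 19.8 to 163.9 ± 6.77 CPM (SD, n = 4), and its call was lost without any one of the 8 libraries other than SLIRP-Veh replicate 4 (edgeR FDR 0.0142 to 0.0358). The exons of ACAT2 overlap those of another gene.

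Secretory and growth pathways gave 0 or 1 call per list. Over all genes tested 0.564% rose and 0.472% fell, and at those shares lists of this size would hold few calls. At an unadjusted edgeR p under 0.05, 7.62% of all genes tested were higher and 6.79% lower. Of 40 genes of folding and secretion in the endoplasmic reticulum, 1 rose, which was SSR3, a subunit of the translocon-associated protein complex, from 198.0 ± 11.03 to 271.6 ± 14.1 CPM (SD, n = 4). Its call was lost without any one of the 8 libraries other than SLIRP-1nM DHT replicate 4 (edgeR FDR 0.0109 to 0.0658), and its exons overlap another locus. The chaperone HSPA5 was at -0.30, uncalled. Of 12 genes of polyamine synthesis and breakdown 0 were called, with edgeR or DESeq2, with a median of 0.24 and 5 higher at an unadjusted edgeR p under 0.05, and ODC1, the rate-limiting enzyme, was at 0.29. Of 43 ribosome biogenesis genes 0 were called with either tool, though 35 had a positive value and 12 were higher at an unadjusted p under 0.05, with a median of 0.18. Of 28 genes of amino acid transport and ATF4 targets, 17 interferon-stimulated genes and 14 immediate early genes, 0 were called with either tool, with medians of 0.03, -0.09 and -0.10. At an unadjusted p under 0.05, 5 of the first list were higher and 1 lower, 1 interferon-stimulated gene was lower and 2 immediate early genes were lower.

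Of 96 genes of S and G2/M phase tested, kinases, replication factors and spindle proteins among them, 88 had a positive log2 fold change, with a median of 0.31, and 6 rose and 0 fell, so that 6.25% rose against 0.564% of all genes tested. At an unadjusted edgeR p under 0.05, 42 were higher and 1 was lower. CDK1, the kinase that drives mitosis, was 172.2, 147.7, 160.4 and 185.9 CPM in vehicle and 221.2, 270.6, 278.9 and 259.2 CPM in DHT, a log2 fold change of 0.61 (SE 0.10, edgeR FDR 0.000506). CDC6, which loads the replicative helicase, went from 42.3 ± 7.23 to 69.3 ± 6.53 CPM (SD, n = 4), MCM4, a subunit of that helicase, from 155.3 ± 13.6 to 240.3 ± 42.4 CPM (SD, n = 4), and MLF1IP, now named CENPU, a centromere protein, from 79.96 ± 12.7 to 126.8 ± 12.9 CPM (SD, n = 4). MCM2 and RRM2, a subunit of ribonucleotide reductase, also rose, by 0.57 and 0.53 on the log2 scale. In RNA from whole cultures, more cells in a phase and more RNA per cell cannot be told apart. The call of CDC6 was lost without any one of the 8 libraries other than SLIRP-Veh replicate 2 (edgeR FDR 0.0169 to 0.0928), that of MCM4 without SLIRP-Veh replicate 1 or 3 or SLIRP-1nM DHT replicate 2 (edgeR FDR 0.0111 to 0.0181), and that of MLF1IP without SLIRP-Veh replicate 1, 2 or 3 or SLIRP-1nM DHT replicate 1, 2 or 3 (edgeR FDR 0.0174 to 0.0357). The exons of MLF1IP overlap those of PRIMPOL, and those of MCM2 another gene, on the other strand.

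E2F1, the transcription factor of replication genes, was 47.4, 44.2, 46.0 and 53.5 CPM in vehicle and 97.0, 81.75, 78.9 and 79.6 CPM in DHT, a log2 fold change of 0.79 (SE 0.15, edgeR FDR 0.00171). ZNF367, a zinc finger factor, went from 49.1 ± 7.08 to 89.5 ± 18.3 CPM (SD, n = 4), a change of 0.79 (SE 0.16) on the log2 scale, and CDK2, the kinase of S phase entry, changed by 0.77. CDK2 overlaps exons of PMEL on the other strand. The call of E2F1 was lost without SLIRP-Veh replicate 1 or SLIRP-1nM DHT replicate 1 (edgeR FDR 0.0113 to 0.0169), and that of ZNF367 without SLIRP-Veh replicate 2, 3 or 4 or SLIRP-1nM DHT replicate 1, 2 or 3 (edgeR FDR 0.0125 to 0.0290). Of 42 histone genes tested, 2 rose, 0 fell and 37 had a positive value, with a median of 0.34, and 21 were higher and 0 lower at an unadjusted edgeR p under 0.05. Over all genes tested, 0.564% rose and 7.62% were higher at the unadjusted threshold. DESeq2 called 1 histone gene. HIST1H2BJ, a core histone of class H2B, went from 36.1 ± 8.11 to 64.6 ± 9.54 CPM (SD, n = 4), and HIST1H1E, a linker histone, from 301.7 ± 22.1 to 405.8 ± 25.2 CPM (SD, n = 4). Both calls were lost without any one of 7 of the 8 libraries (edgeR FDR 0.0105 to 0.0580 for HIST1H2BJ, where the exception was SLIRP-1nM DHT replicate 1, and 0.0162 to 0.0414 for HIST1H1E, where it was SLIRP-Veh replicate 2). Histone genes have many near-identical copies, and their counts are uncertain.

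**Figure D4:**
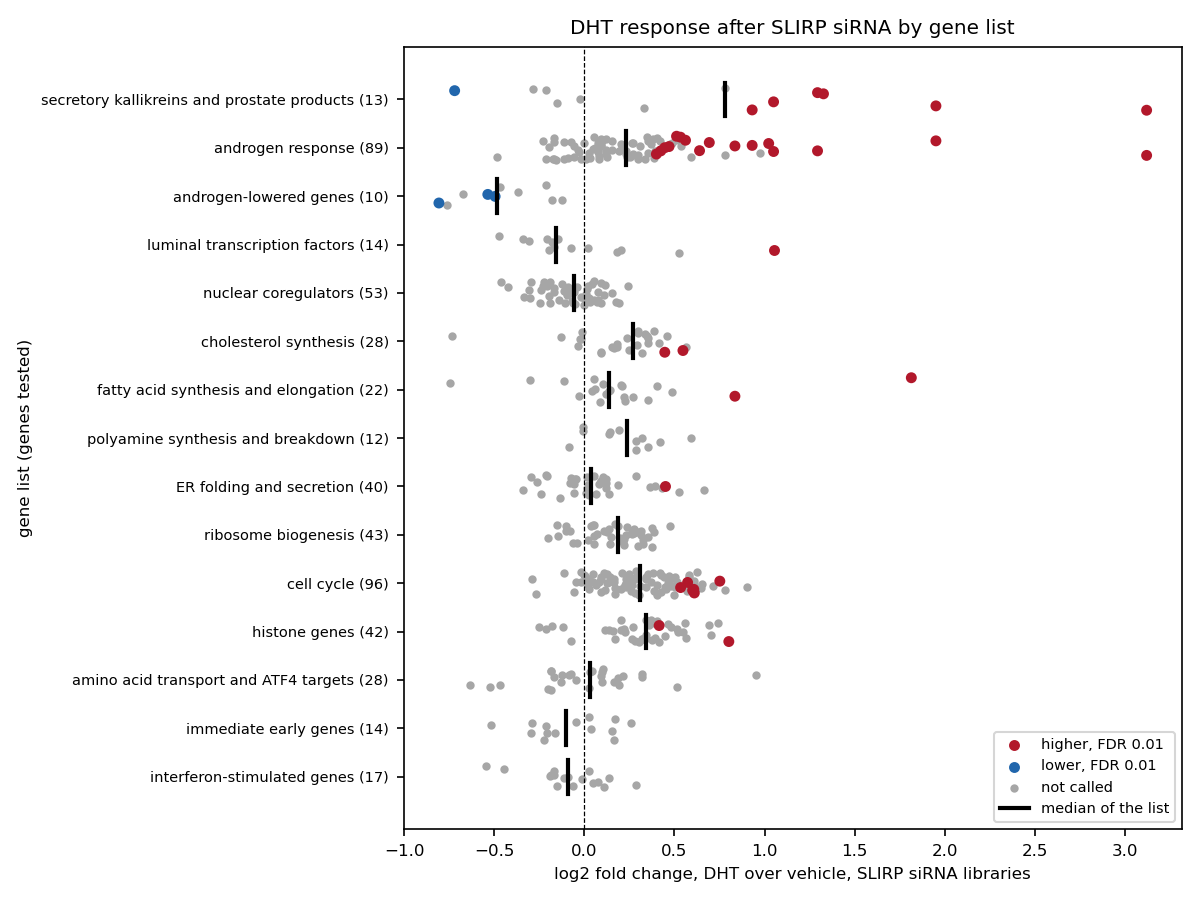
Log2 fold change of DHT over vehicle in the SLIRP siRNA libraries (horizontal axis) for the tested genes of 15 lists (vertical axis, number tested in brackets). Each point is a gene, red where called higher and blue where called lower, and black bars are medians, from 0.78 for kallikreins and prostate products to -0.48 for androgen-lowered genes.

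The study's own list of androgen-regulated genes was chosen on the NS libraries, and its 3 classes were drawn on all 16 libraries, so it is not independent evidence of direction. With SLIRP knocked down, 36 of these genes rose and 0 fell, and 161 had a positive log2 fold change against 6 with a negative one, with a median of 0.37. Over all genes tested 0.564% rose. In class C1, 8 of 37 genes rose, with a median of 0.35. In class C2, 13 of 92 rose, with a median of 0.36, and in class C3, 15 of 38 rose, with a median of 0.46. The 6 genes with a negative value were GTF2H2B (-0.65), SELT (-0.19), GRINA (-0.09), TUBA1C (-0.07), ACTB (-0.06) and FARSA (-0.04), named after their values were seen, and none was called. Without SLIRP-Veh replicate 1, 19 of the list were called, and without SLIRP-1nM DHT replicate 2, 22. In NS cells 78 rose, with a median of 0.63.

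The comparison with NS siRNA asked whether loss of SLIRP changed the response. In the NS libraries, 88 of 10367 genes rose (0.849%) and 48 fell (0.463%). Of these, 62 were called with both siRNAs, which is 61.4% of the SLIRP siRNA calls and 45.6% of the NS calls, and 62 of 62 had the same direction. The NS calls on which these shares rest numbered 136, and fell to 83 without NS-Veh replicate 1, to 87 without NS-Veh replicate 2 and to 89 with DESeq2. Each of the 101 genes called after SLIRP siRNA had the same sign in NS cells, and 94 of them had an unadjusted p under 0.05 there. Across the 9631 genes tested under both siRNAs, which are not independent replicates, the Pearson correlation of the log2 fold changes was 0.484 and the Spearman correlation 0.446. The genes that rose after SLIRP siRNA had a median of 0.69, and the same genes had 0.64 in NS cells. The genes that fell had a median of -0.63, and -0.42 in NS cells. Each set has larger values in the cells that chose it: the genes called higher in NS cells had a median of 0.75 there and 0.47 after SLIRP siRNA.

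No gene passed the test of the difference itself. In a model of all 4 groups over 16 libraries, 0 of 10684 genes (0%) differed in DHT response between SLIRP and NS siRNA at an FDR of 0.01 with edgeR, and 388 had an unadjusted p under 0.05, where that threshold alone would pass 534. DESeq2 also called 0, with 220 under 0.05 over its own set of genes. The edgeR count lies below what the threshold alone would pass, so the lack of calls does not show that the responses were equal. With a replicate block within each siRNA, 542 genes were under 0.05 and GTF2IP1 had an edgeR FDR of 0.0243. The replicate numbers were not taken to pair the libraries. Of the 39 genes called after SLIRP siRNA but not with NS siRNA, 10 had an unadjusted p under 0.05 for the difference. A call under one siRNA alone is therefore not shown to be a difference between them. Without a block, 34 genes of the study's list had an unadjusted edgeR p under 0.05 for the difference, 24 of them in class C2. The cell cycle list had 10 and the histone list 7. Their medians were 0.45 and 0.63 in NS cells, beside 0.31 and 0.34 after SLIRP siRNA. The androgen response list also had 7, with 0.19 in NS cells and 0.23 after SLIRP siRNA. The study's list was chosen on NS cells, and no list was tested as a whole.

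**Figure D5:**
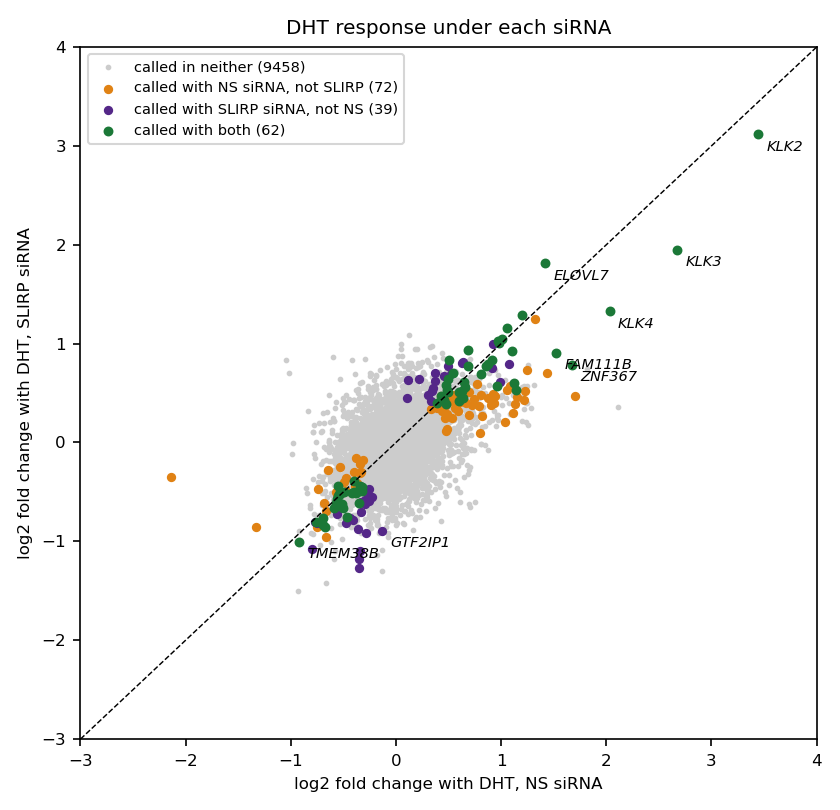
Log2 fold change with DHT after SLIRP siRNA (vertical axis) against NS siRNA (horizontal axis) for the 9631 genes tested under both, with the dashed line marking equal values. The 62 genes called under both siRNAs are green and all lie at the upper right or lower left.

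Among genes with a mean count of 50 or more over the 16 libraries, KLK3 had the smallest p-value of the difference. In NS cells it was 29.1, 25.1, 50.4 and 52.2 CPM in vehicle and 319.3, 323.4, 244.4 and 252.4 CPM in DHT. The vehicle libraries thus lay lower than the 93.0 to 97.3 CPM after SLIRP siRNA, and so did the DHT libraries, below 335.6 to 397.1 CPM. The log2 fold change was 2.68 (SE 0.14) in NS cells, and the difference, SLIRP minus NS, was -0.74 (95% interval -1.12 to -0.35, edgeR unadjusted p = 0.000454, FDR 1.00). KLK4 was 28.9 ± 8.98 CPM in NS-Veh and 132.2 ± 25.2 CPM in NS-1nM DHT (SD, n = 4), and its DHT libraries overlapped between the siRNAs. Its difference was -0.72 (95% interval -1.24 to -0.20, edgeR unadjusted p = 0.00791). KLK2, on few counts, gave -0.32 (95% interval -1.35 to 0.71), TMPRSS2 0.24 (95% interval -0.13 to 0.60) and FKBP5 -0.22 (95% interval -0.60 to 0.17). Among these genes the bounds largest in size were -1.35 for KLK2, -1.24 for KLK4 and -1.12 for KLK3. Those of TMPRSS2 and FKBP5 reached 0.60 and -0.60.

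Only the 5 smallest p-values under the same minimum count were followed. Besides KLK3, SELT alone of these genes was in a gene list, that of the study. Other list members lay outside this cut. RRM2, of the cell cycle list and class C2, gave -0.62 (95% interval -0.99 to -0.25, edgeR unadjusted p = 0.00168). SSR3, of the secretion list, gave 0.35 (95% interval 0.09 to 0.60, edgeR unadjusted p = 0.00866). GTF2IP1 was not called in NS cells, from 205.6 ± 64.4 to 197.2 ± 27.3 CPM (SD, n = 4), and the difference was -0.77 (95% interval -1.19 to -0.35, edgeR unadjusted p = 0.000639). SNHG3-RCC1, an entry for a snoRNA host gene joined to its neighbour, was 120.1 ± 4.80 CPM in SLIRP-1nM DHT, above 81.6 ± 15.9 CPM in SLIRP-Veh (SD, n = 4), and 52.9 ± 8.48 CPM in NS-1nM DHT, beside 59.4 ± 2.92 CPM in NS-Veh (SD, n = 4). Its difference was 0.73 (95% interval 0.33 to 1.13, edgeR unadjusted p = 0.000659), and its own response after SLIRP siRNA missed the threshold (0.54 on the log2 scale, edgeR FDR 0.0198). TOX4, a chromatin protein, gave 0.55 (95% interval 0.23 to 0.87, edgeR unadjusted p = 0.00142), and SELT, selenoprotein T, gave -0.56 (95% interval -0.90 to -0.23, edgeR unadjusted p = 0.00161). TOX4 and SELT overlap exons of another gene. For these genes too the edgeR FDR was 1.00 without a replicate block.

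Upstream sequences were then read for all genes called. The RefSeq table held the 250 bases before at least 1 start for 80 of the 101 genes called and 7990 genes tested, and a gene was counted if any of its starts had a match on either strand. The element shown for KLK3 and KLK2 was found in 9 of the 7990 genes (0.113%). It was in 2 of the 43 genes called higher, which were KLK3 and KLK2 themselves. The pattern was shown because both genes hold it, so this count is not evidence of an excess. It was also in 1 of the 37 called lower, which was GRB10, at position -110 of one of its starts. The other 6 genes with the element, HSPA4, HADH, RNF41, HNRNPD, RNF146 and PLDN, were uncalled, with log2 fold changes from -0.31 to 0.19. Its first part alone was common. AGAACA was upstream of 10.7% of genes tested, 11.6% of those called higher and 16.2% of those called lower, and GGAACA of 12.3%, 14% and 21.6%. Words of the E2F site (TTTCCCGC, TTTCGCGC, TTTGCCGC or TTTGGCGC) were upstream of 6.1% of genes tested, of 5 of the 43 called higher (HIST1H2BJ, E2F1, ZNF367, MLF1IP and CDK1) and of 0 of the 37 called lower. A match is a description of the sequence and not a site of binding.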

How the data were processed

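Single 50-base reads of LNCaP RNA were aligned to hg19 by the authors, who deposited estimated counts per gene, rounded to whole numbers, for 20531 entries named by symbol and Entrez identifier. The submitters' processing notes name CASAVA and RSEM, without versions, and the strand of counting is not given in the sources used here. The authors also deposited a normalized score, the estimated counts divided by the upper quartile of a library and multiplied by 1000. This score was used in 1 alternative only, as log2 of the score plus 1.

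The 4 SLIRP-1nM DHT and 4 SLIRP-Veh libraries were compared with edgeR 4.0.16 in R 4.3.3 (filterByExpr, TMM, glmQLFit, glmQLFTest). P-values were adjusted by Benjamini-Hochberg across the genes tested, and those under 0.01 were called. The NS libraries were fitted in the same way. The difference in response was a contrast of a model of 4 groups over 16 libraries. P-values measure the spread between these libraries. In the SLIRP siRNA libraries 4521 entries had 0 counts throughout. Standard errors were taken from the F statistic, and intervals are 95%. The models were tested on simulated data, drawn as independent libraries with no effect of the experiment. That test does not cover deviations that libraries share.

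The genes named were SLIRP, KLK3, KLK2, KLK4, TMPRSS2 and FKBP5, the 15 largest rises and 10 largest falls (FDR 0.01, mean count of at least 50 and separated groups), up to 4 called members of each list, and the 5 smallest p-values of the difference with a mean count of at least 50. Some genes that this rule takes are not reported here. Members named beyond this rule were chosen for their role or after their values were seen. The comparison, the genes and the lists were chosen with earlier results of these data known. The cell cycle list came from Seurat 5.3.0.

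Alternatives were DESeq2 1.42.0, RLE and upper-quartile scaling, other filters, an FDR of 0.05, a replicate block, the model of 4 groups, limma 3.58.1 on the normalized score and each library left out in turn. Coordinates come from GENCODE 44 on hg19 and upstream sequences from RefSeq on GRCh38.p14. Figures used matplotlib 3.10.9 in Python 3.11.15.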

Additional observations from a re-analysis of the deposited data

Results flagged for a closer look

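Over the 42 named genes and both SLIRP siRNA groups, 84 groups of 4 libraries were checked for 1 library far from the other 3, which chance gives in about 1 of 20 groups, and 2 were found. MAPRE2 was 84.6 CPM in SLIRP-Veh replicate 1, above 57.9 to 60.9 CPM, and its call was lost without that library. E2F1 was 97.0 CPM in SLIRP-1nM DHT replicate 1, above 78.9 to 81.75 CPM, and its call was lost without that library too (edgeR FDR 0.0113).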

How the results depend on the processing

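Of the 37 named genes called after SLIRP siRNA, 22 passed the FDR of 0.01 under every alternative that gave them a value, 15 lost the call at least once, and 0 changed sign. RLE and upper-quartile scaling, DESeq2, a minimum of 10 counts per library and the model of 4 groups kept the counts of higher and lower genes within 1.5 times of 55 and 46, and DESeq2 shared 86 of its 96 calls with edgeR. An FDR of 0.05 gave 122 higher and 107 lower, and no filter on low counts gave 102 and 78. Limma on the normalized score gave 21 and 17, with 8 of the androgen response list and 17 of the study's list. With 1 library left out, 26 to 52 genes were higher and 21 to 37 lower, 9 to 16 of the androgen response list rose, and 19 to 29 of the study's list. In NS cells an FDR of 0.05 gave 272 calls and DESeq2 89 in place of 136, and leaving out 1 library gave 83 to 113.

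A replicate block gave 118 higher and 102 lower genes, 55 of the study's list and 270 calls in NS cells, and 101 of the 101 genes called without the block were called with it. The deviations of same-numbered SLIRP-Veh and SLIRP-1nM DHT libraries from the mean of their group had correlations of 0.015, 0.151, 0.064 and 0.180 across 6825 genes, and not every library correlated best with its own number, so the numbers were not taken to pair the libraries. Over pairs within replicates 1 and 2 or within 3 and 4 the correlations lay between -0.0313 and 0.193, and across those pairs between -0.261 and 0.0441. Chosen after seeing the data, separate fits gave 19 higher and 13 lower genes in replicates 1 and 2 (8 of the androgen response list and 13 of the study's) and 52 and 47 in replicates 3 and 4. Of the 101 calls, 31 were called again in replicates 1 and 2 and 62 in replicates 3 and 4, which are libraries that made the calls. A term for replicates 1 and 2 against 3 and 4 gave 116 higher and 90 lower.

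The difference between siRNAs was refitted with DESeq2, RLE scaling, a minimum of 10 counts, a replicate block and each library left out in turn. These fits and an FDR of 0.05 called 0 genes, except 1 without NS-1nM DHT replicate 2. It was EIF3C (edgeR FDR 0.00317), a gene with a near-identical copy. The difference was not tested with upper-quartile scaling, no filter on low counts, limma or the term for pairs of replicates. With a replicate block within each siRNA, 542 genes had an unadjusted p under 0.05 for the difference, and the edgeR FDR was 0.0243 for GTF2IP1, 0.218 for SELT, 0.251 for SNHG3-RCC1, 0.307 for KLK3 and 0.376 for TOX4. With 1 library left out, the difference of KLK2 lay between -0.861 and 0.0554, positive only without NS-Veh replicate 3, all with an FDR that missed the threshold. The cause of these changes was not tested. With at most 1689708 counts in a SLIRP siRNA library, genes with few counts could not be tested.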
